A study of Mus musculus with 12 samples.

Results

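The genes described here are Trp53, which encodes the transcription factor p53, Cdkn2a, which encodes ARF and p16INK4a, the p53 ubiquitin ligase gene Mdm2, and 7 p53 target genes, Cdkn1a, Trp53inp1, Zmat3, Sesn1, Rrm2b, Ccng1 and Zfp365. They were listed by name and matched by mouse symbol to the Ensembl identifiers of the count files, which gave all 10 of 10 genes among 56748 identifiers. All 10 passed the filter on low counts, Zfp365 through its counts in the hematogenous group. Poly(A) RNA was sequenced from the Eµ-Myc lymphoma line, a mouse B cell lymphoma in which a Myc transgene is driven by the immunoglobulin heavy chain enhancer, and this line is common to every group. The culture group held 4 libraries of cells taken from culture. The lymphatic group held 4 libraries of lymphoma cells sorted from lymph nodes of C57BL/6J mice on day 11 after injection, following spread through lymphatic vessels, and the hematogenous group 4 libraries of lymphoma cells sorted from lymph nodes of such mice on day 18, following spread through the blood. Route and day cannot be told apart. The labels give neither the marker used for the sort, nor the age of the mice, nor the p53 or ARF genotype of the line. For cultured cells their tissue entry also reads lymph node, and the titles were followed. Nothing in them says that replicates come from separate animals or cultures, so each p-value reflects only the spread among these samples, which may be technical.

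As background, p53 is held at a low level by MDM2, which ubiquitinates it, while Mdm2 is itself a p53 target, which closes a feedback loop. ARF, made from the Cdkn2a locus when Myc is overactive, binds MDM2 and releases p53, which then induces genes for cell cycle arrest, apoptosis and DNA repair. In Eµ-Myc mice this pathway restrains lymphoma, and lymphomas that arise often carry a lesion in Trp53 or in Cdkn2a. Much of the control of p53 itself acts on the protein, which RNA counts do not measure.

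Assigned counts ran from 5286775 to 25302016 per library, and levels are given as CPM, which are counts scaled to the size of the library. Lymphatic 4 stood apart: with genes split by exon length into 5 equal classes, the median log2 deviation of the longest class minus that of the shortest was −1.27, against −0.0685 to 0.191 in the other 11 libraries. Ribosomal protein genes took 15.4% of its counts, against 7.43% to 9.63% elsewhere. The B lineage markers Cd79a, Cd79b, Pax5, Ebf1 and Blnk were counted in every library, Cd79a at 286 to 533 CPM and Pax5 at 330 to 849 CPM over the 12 libraries. Their means differed between culture, lymphatic and hematogenous libraries. Pax5 was at 549, 420 and 778 CPM, Ebf1 at 94.0, 75.3 and 162 CPM, and Cd79b at 269, 482.5 and 631 CPM. Cd79a (446, 399 and 476 CPM) and Blnk (226, 237 and 190 CPM) varied less. T cell markers, 10 genes, summed to 4.84 to 7.03 CPM in culture with 5 of 10 at 0 counts, to 34.6 to 117 CPM in the lymphatic group and to 34.9 to 46.6 CPM in the hematogenous group. Lck made up nearly all of the culture sum, with a mean of 6.02 CPM, and had means of 20.3 and 30.4 CPM in the lymphatic and hematogenous groups. Every other T cell marker had a lower mean in hematogenous than in lymphatic libraries, such as Trbc2 (1.18 and 8.09 CPM) and Cd4 (1.35 and 5.01 CPM). Myeloid markers, also 10 genes, summed to 14.8 to 19.9 CPM in culture with 5 at 0 counts, to 27.7 to 70.1 CPM in the lymphatic group and to 20.1 to 27.4 CPM in the hematogenous group. Most of this rise was Lyz2, from 0 CPM in culture to means of 27.6 and 11.8 CPM. Csf1r went the other way, from 8.54 to 3.76 and 1.49 CPM, as did Itgam, from 4.89 to 0.535 and 0.809 CPM. Lymphatic 4 had the highest sum of both marker lists. The 10 stromal and endothelial markers summed to 75.8 to 80.7, 80.2 to 115 and 140 to 168 CPM, with 3, 5 and 7 genes at 0 counts, and nearly all of each sum was Pecam1, which leukocytes also express. The 6 NK cell markers summed to 18.7 to 22.9 CPM in culture, 1.22 to 5.12 CPM in lymphatic and 0.190 to 1.08 CPM in hematogenous libraries. Nearly all of the culture sum was Klrb1c, at 20.2 CPM, while the means of Klrk1, Gzma, Prf1 and Eomes were at most 0.0845 CPM in culture and between 0.384 and 0.648 CPM in lymphatic libraries. The 6 erythroid markers summed to 11.3 to 29.9, 2.30 to 15.1 and 3.11 to 6.36 CPM. Here the culture sum was nearly all Hbb-bt, with a mean of 17.2 CPM, while Hbb-bs went from 0.0389 CPM in culture to 3.10 and 1.45 CPM in the lymph node groups. Mature B cell markers (Ighd, Cr2 and Fcer2a) summed to 303 to 343 CPM in culture, 155 to 202 CPM in the lymphatic and 799 to 969 CPM in the hematogenous group, nearly all of it Ighd. Fcer2a went the other way from Ighd in lymphatic libraries, from 0.147 CPM in culture to 8.93 (5.92 ± 0.554 on the log2 scale, edgeR adjusted p = 4.03e-06), with 3.52 CPM in hematogenous libraries. This Fcer2a change rests on 5 counts in the whole culture group, and the gene passed the filter on low counts through the lymph node groups, where it is high. Cr2 rose from 2.23 to 6.63 and 6.94 CPM (edgeR adjusted p = 0.00408 and 0.00282). The part of these markers in the results was not tested.

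In lymph nodes of both routes, Zmat3, Cdkn1a and Trp53inp1 fell from their level in culture and Rrm2b rose. Mdm2 and Zfp365 also changed in the hematogenous group, Mdm2 downwards and Zfp365 upwards, and Trp53 and Sesn1 fell in the lymphatic group. Cdkn2a and Ccng1 passed the test in neither group. Zfp365 could be tested only through its counts in the hematogenous group, so the counts that follow are of the other 9 genes. Against culture, 5 of the 9 were lower and 1 was higher in lymphatic libraries by edgeR's quasi-likelihood test at an adjusted p of 0.05, where 26.4% of all 13535 genes tested were called, 13.0% lower and 13.4% higher. In hematogenous libraries 4 were lower and 1 was higher, where 27.8% of all genes were called, 13.9% in each direction. Lymphatic and culture libraries did not overlap for 6 of the 9, as for 30.1% of all genes, and hematogenous and culture libraries for 5 of the 9, as for 43.6% of all genes. Both comparisons share the culture libraries. These genes were chosen with earlier results of these data known, so the counts called describe them and are not independent support. The median log2 fold change of the 9 genes was −0.37 in lymphatic and −0.25 in hematogenous libraries, beside 0.04 and −0.00 for all genes tested. In these bulk samples, fewer cells of a type and less RNA per cell cannot be told apart.

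**Figure D1:**
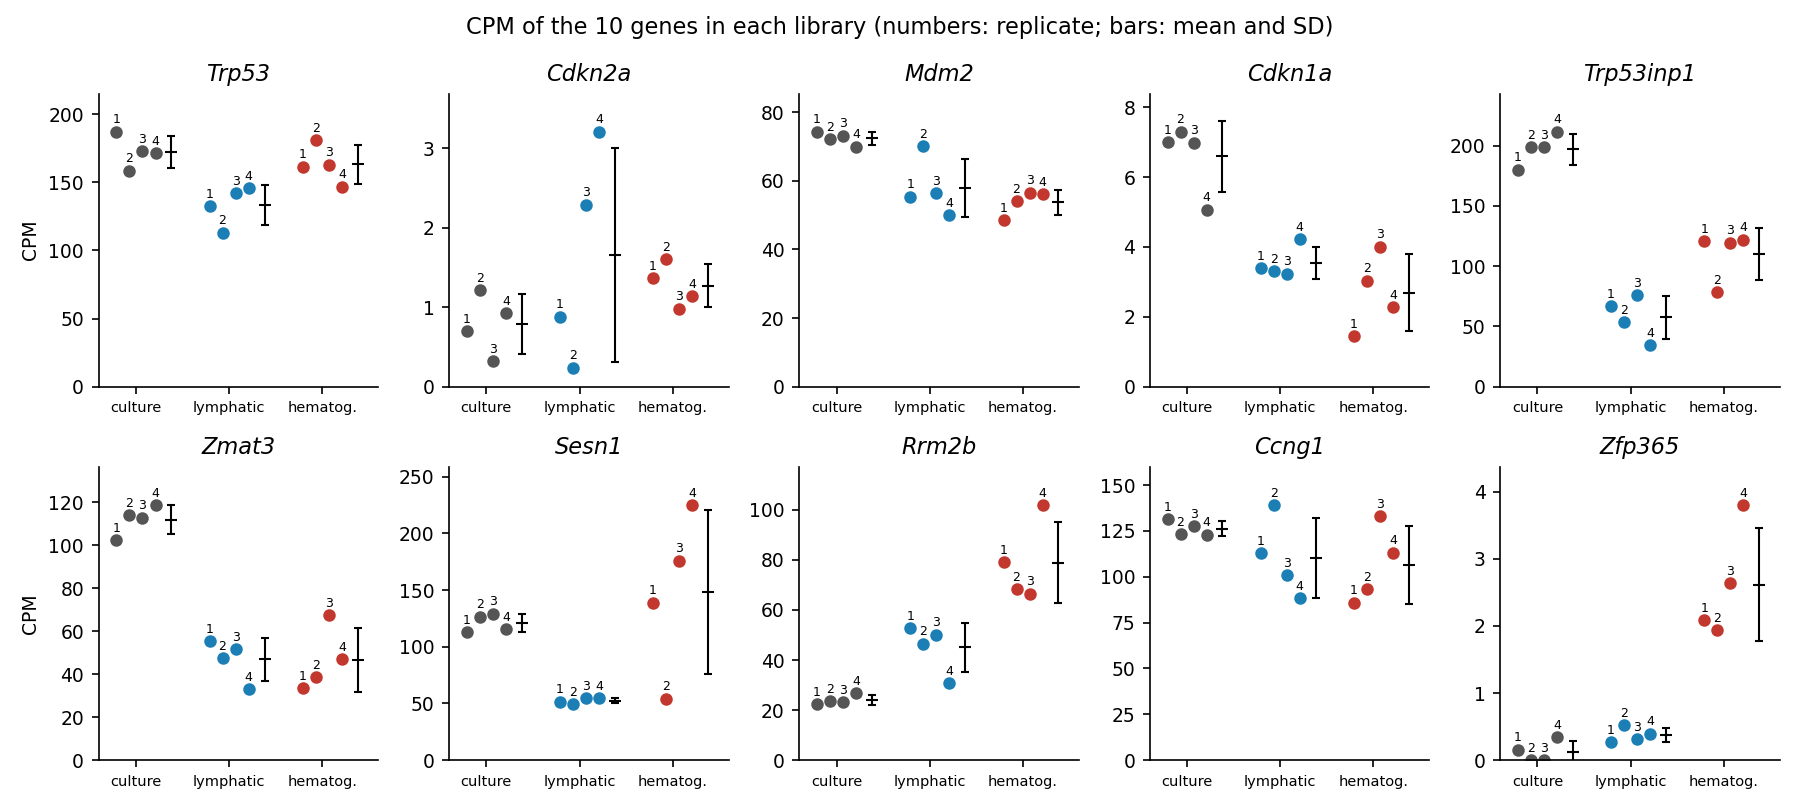
Level of each of the 10 genes in CPM (counts scaled to library size) in the 12 libraries, 1 panel per gene with its own axis, with points for libraries and bars for the group mean and SD (n = 4). Zmat3 sat between 102 and 119 CPM in culture and at or below 67.5 CPM in every lymph node library, while Rrm2b sat at or below 26.8 CPM in culture and at or above 30.8 CPM in every lymph node library.

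Trp53 was well expressed in all groups and was lower in lymphatic libraries. Its level was 187, 158, 173 and 172 CPM in culture 1 to 4, 133, 113, 142 and 146 CPM in lymphatic 1 to 4, and 162, 181, 163 and 147 CPM in hematogenous 1 to 4. All 4 lymphatic libraries lay below all culture and all hematogenous libraries, and culture and hematogenous libraries overlapped. The group means ± SD were 173 ± 11.7, 133 ± 14.6 and 163 ± 14.0 CPM (n = 4 each). The log2 fold change was −0.37 ± 0.108 (SE) in lymphatic against culture (edgeR adjusted p = 0.0209), a 1.30-fold difference, and −0.08 ± 0.108 in hematogenous against culture (adjusted p = 0.639, 95% interval −0.31 to 0.15). The lymphatic call was lost in 7 of 19 alternative settings, among them without culture 1 (adjusted p = 0.0704), culture 3 (0.050), culture 4 (0.0535) or lymphatic 2 (0.0513), over a range of adjusted p from 0.00235 to 0.116. Between the routes Trp53 missed the threshold (−0.29 ± 0.108, adjusted p = 0.0680), and it passed without lymphatic 4 (−0.35, adjusted p = 0.0108, range over the alternatives 0.0108 to 0.278).

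Cdkn2a was counted in every library at a trace level, in a single identifier that covers both of its products, so ARF and p16INK4a transcripts cannot be told apart in these counts. It had 9, 7, 3 and 8 counts in culture 1 to 4, which is 0.700, 1.22, 0.322 and 0.922 CPM. In lymphatic 1 to 4 it had 13, 6, 29 and 57 counts, or 0.879, 0.239, 2.29 and 3.20 CPM, and in hematogenous 1 to 4 it had 17, 19, 10 and 6 counts, or 1.36, 1.60, 0.978 and 1.14 CPM. The lymphatic libraries spanned the whole range, with lymphatic 2 below every other library and lymphatic 4 above every other, and the groups overlapped in all 3 comparisons. No difference was detected at this depth: the log2 fold change was 1.09 ± 0.642 in lymphatic against culture (edgeR adjusted p = 0.237, 95% interval −0.29 to 2.47) and 0.76 ± 0.677 in hematogenous against culture (adjusted p = 0.463, interval −0.70 to 2.21). The lymphatic value was 0.45 without lymphatic 4 (adjusted p = 0.602), and it was 1.49 and passed the test without lymphatic 2 (adjusted p = 0.0354, range over the alternatives 0.0354 to 0.727).

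The 2 RefSeq starts of Cdkn2a in mouse genome build GRCm38.p6 lie on the minus strand of chromosome 4, the upstream one belonging to ARF and the downstream one to p16INK4a. The 250 bases before each start are shown because they are the separate promoters whose transcripts the counts merge, at chr4:89294620-89294869 for ARF and chr4:89282193-89282442 for p16INK4a. Both are printed 5′ to 3′ on the minus strand, and neither holds a match to the motifs searched, so no letters are in capitals.
Cdkn2a, ARF start: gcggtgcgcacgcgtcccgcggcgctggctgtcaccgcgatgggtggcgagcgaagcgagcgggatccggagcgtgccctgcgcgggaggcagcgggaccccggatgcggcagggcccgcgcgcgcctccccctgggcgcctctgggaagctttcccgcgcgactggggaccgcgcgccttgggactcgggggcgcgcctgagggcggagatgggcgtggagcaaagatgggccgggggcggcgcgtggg
Cdkn2a, p16INK4a start: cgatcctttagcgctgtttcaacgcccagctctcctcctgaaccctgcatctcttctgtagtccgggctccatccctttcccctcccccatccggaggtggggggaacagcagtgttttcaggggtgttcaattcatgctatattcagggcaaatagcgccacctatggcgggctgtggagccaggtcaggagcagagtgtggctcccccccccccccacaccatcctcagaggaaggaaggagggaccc

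Mdm2 fell by a small amount in hematogenous libraries, and its difference in lymphatic libraries did not pass the test. It stood at 74.3, 72.1, 73.1 and 69.9 CPM in culture 1 to 4, 55.3, 70.0, 56.5 and 50 CPM in lymphatic 1 to 4, and 48.6, 54.0, 56.6 and 56.0 CPM in hematogenous 1 to 4. The hematogenous libraries all lay below culture, whereas lymphatic 2 was within the culture range. Means ± SD were 72.4 ± 1.84, 58.0 ± 8.50 and 53.8 ± 3.65 CPM. The log2 fold change was −0.43 ± 0.115 in hematogenous against culture (edgeR adjusted p = 0.0117), a call lost when no filter on low counts was used (adjusted p = 0.0826, the highest of the alternatives, with 1.43e-04 the lowest). In lymphatic against culture it was −0.32 ± 0.114 and just missed the threshold (adjusted p = 0.0523, 95% interval −0.56 to −0.08). It passed in 5 of 19 alternatives, which included leaving out lymphatic 2 (−0.42, adjusted p = 0.00927), lymphatic 4 (adjusted p = 0.0441) or hematogenous 1 (adjusted p = 0.0455), over a range from 0.00927 to 0.251. The routes overlapped (0.11 ± 0.114, adjusted p = 0.518, interval −0.14 to 0.35).

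Cdkn1a, which encodes the cyclin-dependent kinase inhibitor p21 and is a classic p53 target in cell cycle arrest, was low in culture and lower in lymph nodes. It was measured at 7.00, 7.30, 6.99 and 5.07 CPM in culture 1 to 4, 3.38, 3.31, 3.23 and 4.22 CPM in lymphatic 1 to 4, and 1.45, 3.03, 4.01 and 2.28 CPM in hematogenous 1 to 4. Every culture library lay above every lymph node library, and the routes overlapped. Culture 4 was the lowest of its group and lymphatic 4 the highest of its group. Against culture the log2 fold change was −0.89 ± 0.260 in lymphatic (edgeR adjusted p = 0.0214) and −1.28 ± 0.275 in hematogenous libraries (adjusted p = 0.00283), a 1.86-fold and a 2.43-fold fall. The lymphatic call was lost without culture 1, culture 2 or culture 3 (adjusted p = 0.0573, 0.0573 and 0.0545, range over the alternatives 0.00685 to 0.0573). The routes did not differ by the test (0.39 ± 0.273, adjusted p = 0.325, 95% interval −0.20 to 0.98). Of the exons of Cdkn1a, 7.68% overlap a gene annotated on the opposite strand, and the strand setting of the counting is not given in the sources used here.

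The p53 response element is a pair of decamers with a short spacer between them, and the windows of 250 bases before RefSeq starts were searched for a single decamer on both strands. At least 1 decamer was found in 5 of the 10 windows of the 7 matched genes, in windows of Trp53, Mdm2, Cdkn1a, Ccng1 and Sesn1, while 7.13% of 32841 windows over all genes held it and 17.2% of 64 windows of other p53 targets did. Trp53inp1, Zmat3 and Rrm2b have no window in the table used. The FOXO motif GTAAACA was in 1 window, that of Mdm2, beside 3.17% over all genes, and the E-box CACGTG in 1 window, that of Zfp365, beside 6.02%. A match describes letters and is not evidence of binding, and a missing match says only that the letters are not in that window. Cdkn1a and Sesn1 each have an upstream and a downstream start. Of these, only the upstream start of Cdkn1a and the downstream start of Sesn1 had decamers in the window. The 3 windows shown illustrate the matches nearest the results: the upstream start of Cdkn1a at chr17:29090729-29090978 on the plus strand, with decamers starting 73 and 51 bases before the start, Mdm2 at chr10:117710759-117711008 on the minus strand, with a decamer 186 and the FOXO motif 153 bases before, and the downstream start of Sesn1 at chr10:41887189-41887438 on the plus strand, with a decamer 173 bases before. They are given 5′ to 3′ on the strand of the gene in build GRCm38.p6 of RefSeq, with the matches in capitals.
Cdkn1a: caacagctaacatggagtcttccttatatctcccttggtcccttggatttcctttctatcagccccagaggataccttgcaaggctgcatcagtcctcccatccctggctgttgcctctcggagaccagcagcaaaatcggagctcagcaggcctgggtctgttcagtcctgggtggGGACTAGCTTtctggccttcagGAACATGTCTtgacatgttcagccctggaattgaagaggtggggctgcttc
Mdm2: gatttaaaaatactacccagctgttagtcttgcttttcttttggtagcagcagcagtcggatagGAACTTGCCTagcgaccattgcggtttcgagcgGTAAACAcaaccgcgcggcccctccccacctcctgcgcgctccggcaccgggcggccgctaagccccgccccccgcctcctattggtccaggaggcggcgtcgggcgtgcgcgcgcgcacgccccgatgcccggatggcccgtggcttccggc
Sesn1: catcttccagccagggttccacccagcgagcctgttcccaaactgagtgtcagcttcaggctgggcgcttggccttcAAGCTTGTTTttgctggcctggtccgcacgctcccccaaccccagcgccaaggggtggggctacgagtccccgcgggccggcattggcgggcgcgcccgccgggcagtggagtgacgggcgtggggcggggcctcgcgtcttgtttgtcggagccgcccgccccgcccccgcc

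Ccng1, which encodes cyclin G1, a p53 target that acts with the phosphatase PP2A on MDM2, showed no change that passed the test. It was at 131, 123, 128 and 123 CPM in culture 1 to 4, 113, 139, 101 and 88.1 CPM in lymphatic 1 to 4, and 85.8, 93.3, 133 and 113 CPM in hematogenous 1 to 4. Culture was tight (SD 3.97 CPM), while the lymph node groups spread around and below it (SD 21.7 and 21.2 CPM). Its log2 fold change was −0.20 ± 0.155 in lymphatic (edgeR adjusted p = 0.384, 95% interval −0.53 to 0.14) and −0.25 ± 0.155 in hematogenous libraries (adjusted p = 0.271, interval −0.58 to 0.08).

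Trp53inp1, whose product helps p53 induce apoptosis and takes part in autophagy, had the largest fall of the 10 genes in lymphatic libraries. Its level was 180, 199, 199 and 212 CPM in culture 1 to 4, 66.8, 53.4, 75.9 and 34.5 CPM in lymphatic 1 to 4, and 121, 78.3, 119 and 122 CPM in hematogenous 1 to 4. The 3 groups did not overlap: culture was highest, hematogenous intermediate and lymphatic lowest, with hematogenous 2 only just above lymphatic 3. By log2 fold change the fall was −1.78 ± 0.211 in lymphatic (edgeR adjusted p = 3.47e-05, 3.43-fold) and −0.84 ± 0.207 in hematogenous libraries (adjusted p = 0.00699, 1.79-fold). The direct test between the routes gave −0.93 ± 0.208 (adjusted p = 0.00587), so the fall was greater in lymphatic libraries. All 3 calls held in each of the 19 alternatives. Without lymphatic 4, the lowest library, the fall was −1.60 in lymphatic against culture and −0.76 against hematogenous libraries.

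Zmat3, a zinc finger RNA-binding protein that acts downstream of p53 on splicing and transcript stability, fell in both routes, from 112 ± 6.90 CPM to means of 46.9 ± 9.83 and 46.6 ± 15.0 CPM. Its 4 culture libraries had 102, 114, 113 and 119 CPM. Lymphatic 1 to 4 had 55.5, 47.5, 51.6 and 33.0 CPM, and hematogenous 1 to 4 had 33.6, 38.6, 67.5 and 46.9 CPM. No lymph node library reached culture, and the ranges of the routes overlapped in part, with hematogenous 3 above and lymphatic 4 below all libraries of the other route. The log2 fold change was −1.26 ± 0.203 in lymphatic (edgeR adjusted p = 0.00045) and −1.27 ± 0.205 in hematogenous libraries (adjusted p = 0.000337), both calls holding in the 19 alternatives. The difference between the routes was 0.01 ± 0.202 (adjusted p = 0.981, 95% interval −0.43 to 0.44), an interval that leaves room for a difference of about the size of the Mdm2 change.

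Sesn1 encodes a sestrin, a stress-induced inhibitor of mTORC1 that is a target of both p53 and FOXO factors, and it was lower in lymphatic libraries than in culture or in the hematogenous group. It was 113, 126, 129 and 116 CPM in culture 1 to 4, 51.5, 49.5, 54.6 and 54.7 CPM in lymphatic 1 to 4, and 139, 54.1, 176 and 225 CPM in hematogenous 1 to 4. The lymphatic libraries were low and close together, whereas 3 hematogenous libraries exceeded all of culture and hematogenous 2 lay within the lymphatic range. The fall in lymphatic against culture was −1.20 ± 0.291 (edgeR adjusted p = 0.00753, 2.30-fold), and lymphatic against hematogenous gave −1.49 ± 0.292 (adjusted p = 0.00280, 2.82-fold). Hematogenous against culture did not pass (0.29 ± 0.287, adjusted p = 0.513, 95% interval −0.33 to 0.91). Without hematogenous 2 it was 0.57 ± 0.144 and passed (adjusted p = 0.0111, range over the alternatives 0.0111 to 0.966), so that 1 library decided this call. Hematogenous 2 was also the lowest of its group for Trp53inp1, Il7r, Pik3ip1 and Txnip, the last 3 of which belong to the FOXO list below. Of that list it was the lowest for Foxo4, Ccng2, Klf2 and Irs2 too. It was the highest of its group for Sesn3 (133 CPM), Foxo1 (91.4 CPM), Bcl6 (8.50 CPM) and Rag1 (10.6 CPM), and lay between for Foxo3 and Cited2. The summed T cell markers of hematogenous 2 were the highest of its group at 46.6 CPM.

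Rrm2b, the p53-inducible small subunit of ribonucleotide reductase, which supplies deoxynucleotides for DNA repair, rose in both routes. It had 22.2, 23.5, 23.1 and 26.8 CPM in culture 1 to 4, 52.6, 46.5, 50.2 and 30.8 CPM in lymphatic 1 to 4, and 79.1, 68.2, 66.4 and 102 CPM in hematogenous 1 to 4. The groups did not overlap, with hematogenous highest, and lymphatic 4 was the lymphatic library nearest to culture. Its log2 fold change was 0.91 ± 0.179 in lymphatic (edgeR adjusted p = 0.00196, 1.88-fold) and 1.72 ± 0.182 in hematogenous libraries (adjusted p = 7.85e-06, 3.29-fold). Lymphatic libraries were lower than hematogenous ones (−0.81 ± 0.175, adjusted p = 0.00519). These 3 calls held in the 19 alternatives. A gene annotated on the opposite strand overlaps 8.04% of the exon bases of Rrm2b.

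Zfp365, whose human counterpart ZNF365 is a p53-induced gene that protects replicating DNA, was near 0 outside the hematogenous group. It had 2, 0, 0 and 3 counts in culture 1 to 4, or 0.156, 0, 0 and 0.346 CPM. Lymphatic 1 to 4 had 4, 13, 4 and 7 counts, or 0.271, 0.518, 0.315 and 0.394 CPM, and hematogenous 1 to 4 had 26, 23, 27 and 20 counts, or 2.09, 1.94, 2.64 and 3.80 CPM. Every hematogenous library lay above every other library, and lymphatic and culture libraries overlapped. The log2 fold change was 4.13 ± 0.567 in hematogenous against culture (edgeR adjusted p = 8.14e-05, 17.5-fold), resting on 5 counts in the whole culture group, and −2.69 ± 0.432 in lymphatic against hematogenous (adjusted p = 0.000772, 6.43-fold). Lymphatic against culture did not pass (1.45 ± 0.661, adjusted p = 0.125, 95% interval 0.03 to 2.87). The gene passed the filter through the group in which it is high.

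Between the routes, 3 of the 9 genes other than Zfp365 (Trp53inp1, Sesn1 and Rrm2b) were lower in lymphatic libraries by edgeR and the other 6 did not pass, where 22.3% of all genes were called, 10.9% lower and 11.4% higher. The groups did not overlap for 3 of the 9, Trp53, Trp53inp1 and Rrm2b, where this held for 24.6% of all genes. The median difference of the 9 genes was 0.01, beside 0.03 for all genes. Zfp365 was lower in lymphatic libraries too, which the filter favoured. For Trp53inp1 lymphatic libraries lay farther below culture, whereas for Rrm2b and Zfp365 hematogenous libraries lay farther above it. For Sesn1 only lymphatic libraries were called lower than culture, and hematogenous against culture did not pass edgeR's test (0.29, adjusted p = 0.513).

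**Figure D2:**
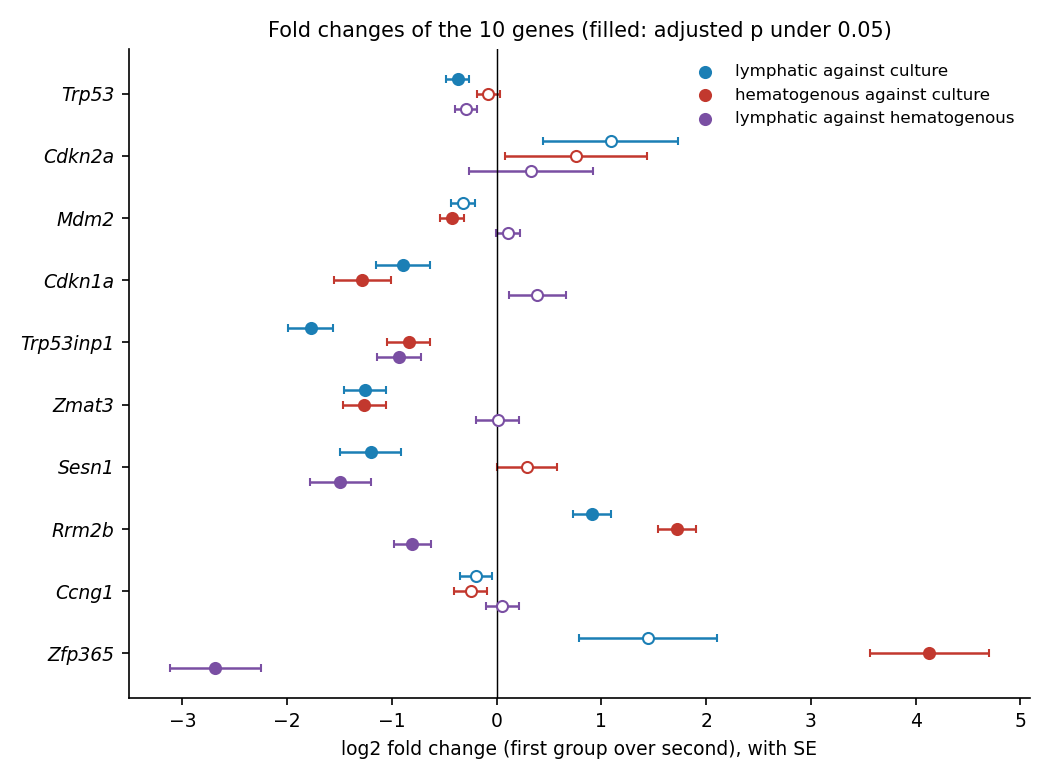
Log2 fold change of the 10 genes in lymphatic against culture, hematogenous against culture and lymphatic against hematogenous libraries, with points for the edgeR estimate, filled where the adjusted p is under 0.05, and bars for its SE. Zmat3 lies near −1.26 against culture in both routes and at 0.01 between them, and Rrm2b lies at 0.91 and 1.72 against culture.

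Levels were compared between genes only per kilobase of exon. In culture the order was Trp53 (42.7 ± 2.89 CPM per kb), Ccng1 (36.0 ± 1.13), Trp53inp1 (30.5 ± 1.99), Sesn1 (30.4 ± 1.99), Mdm2 (14.2 ± 0.361), Zmat3 (9.80 ± 0.604), Rrm2b (2.62 ± 0.221), Cdkn1a (1.85 ± 0.288), Cdkn2a (0.674 ± 0.321) and Zfp365 (0.0241 ± 0.0315). Of these neighbours, only Trp53inp1 and Sesn1 overlapped across libraries and did not differ beyond their spread. In lymphatic libraries Trp53 (32.9 ± 3.61) and Ccng1 (31.4 ± 6.17) still led and overlapped, Sesn1 (13.2 ± 0.632) overlapped Mdm2 (11.4 ± 1.67), Mdm2 overlapped Trp53inp1 (8.90 ± 2.78), Trp53inp1 overlapped Rrm2b (4.93 ± 1.08), Rrm2b overlapped Zmat3 (4.10 ± 0.860), and Cdkn2a (1.41 ± 1.1) overlapped Cdkn1a (0.995 ± 0.129). Zfp365 stayed last at 0.0719 ± 0.0209. In hematogenous libraries Trp53 (40.3 ± 3.46), Sesn1 (37.3 ± 18.1) and Ccng1 (30.3 ± 6.04) overlapped, as did Mdm2 (10.6 ± 0.718) with Rrm2b (8.64 ± 1.78). Trp53inp1 (17.0 ± 3.28) and Zmat3 (4.08 ± 1.31) overlapped neither neighbour except that the lowest Sesn1 library fell within the range of Trp53inp1. At the bottom, Cdkn2a (1.08 ± 0.231) and Cdkn1a (0.758 ± 0.307) overlapped, as did Cdkn1a and Zfp365 (0.503 ± 0.162).

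**Figure D3:**
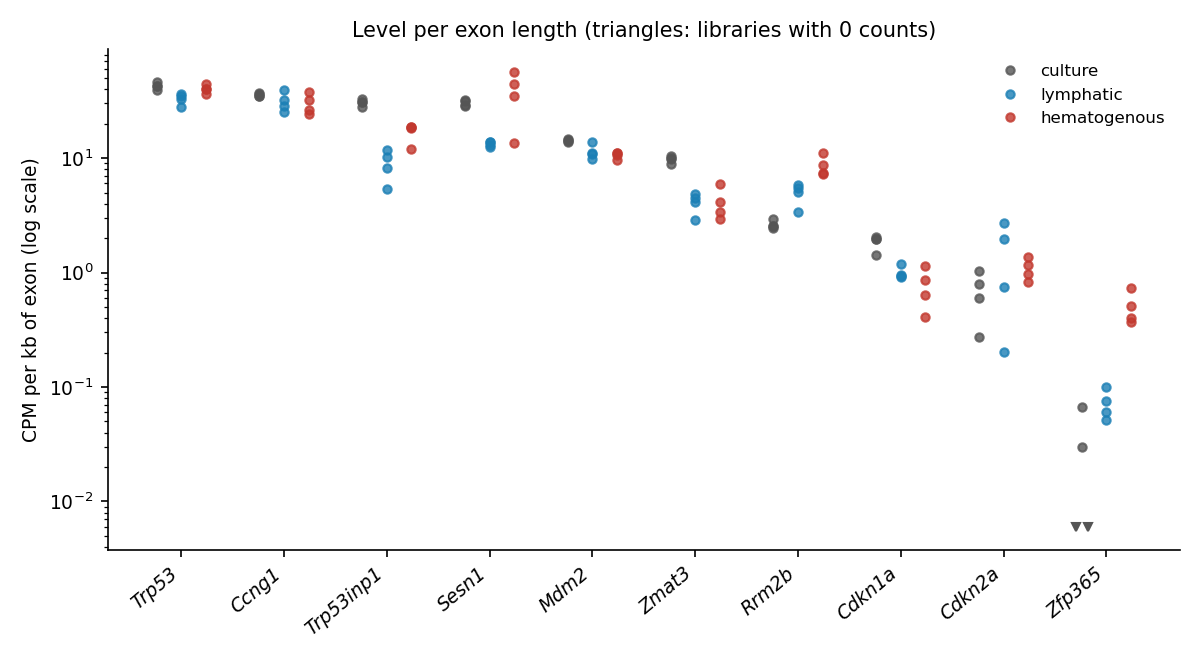
Level of the 10 genes per kilobase of exon (CPM per kb, log axis) in the 3 groups, with points for libraries and triangles for libraries with 0 counts. Trp53 leads in each group by its mean, from 32.9 to 42.7 CPM per kb, and Rrm2b moves from 2.62 in culture to 8.64 in hematogenous libraries.

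The tilt of lymphatic 4 with gene length touched the members unequally. Against the mean of the other 3 lymphatic libraries, in 10 equal classes by exon length, the median of the shortest class, around 0.554 kb, was 0.76 higher on the log2 scale in lymphatic 4, and the median of the longest class, around 11.736 kb, stood at −0.77. Zmat3 (11.435 kb) was at −0.64 beside −0.77 for genes of its length, Rrm2b (9.134 kb) at −0.69 beside −0.49, and Trp53inp1 (6.475 kb) at −0.91 beside −0.31. At the other end Cdkn2a (1.172 kb) was at 1.74 beside 0.65. Ccng1 (3.512 kb) lay at −0.40 beside 0.16, and the other 5 genes lay within 0.34 of 0.

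**Figure D4:**
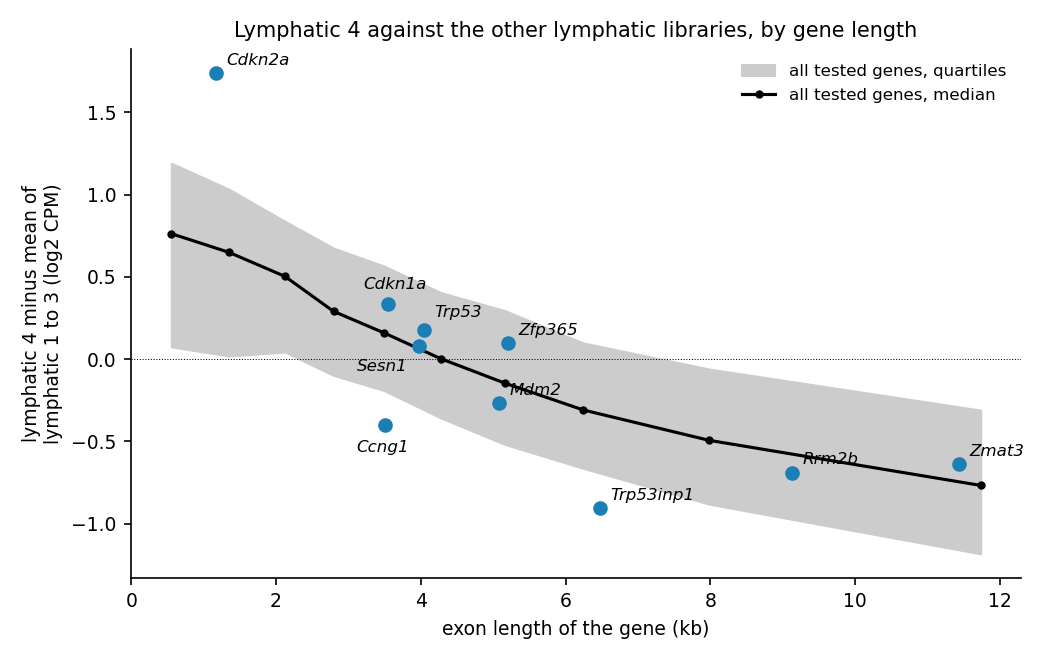
Log2 difference of lymphatic 4 from the mean of the other lymphatic libraries against exon length in kb, with the line for the medians and the grey band for the quartiles of all tested genes in 10 length classes, and points for the 10 genes. The medians fall from 0.76 to −0.77, and Cdkn2a at 1.74 and Trp53inp1 at −0.91 are the highest and lowest of the points.

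Other genes of the pathway were taken from lists, which were drawn up with earlier results of these data known. Of 20 p53 regulators, 18 could be tested, and 1 rose and 3 fell in lymphatic libraries, 2 rose and 3 fell in hematogenous libraries, with medians of −0.03 and −0.07. The called share was 22.2% and 27.8%, near the 26.4% and 27.8% of all genes. Hipk2, a kinase that phosphorylates p53, fell from 23.4 ± 3.66 to 11.6 ± 2.43 CPM in lymphatic libraries (−1.01 ± 0.178, edgeR adjusted p = 0.000922) and was at 22.3 ± 2.87 CPM in hematogenous ones. Ppp1r13b, which encodes the p53 partner ASPP1, fell there as well, from 27.3 ± 2.94 to 13.7 ± 2.96 CPM (−0.999 ± 0.163, adjusted p = 0.000481), and was at 24.2 ± 2.93 CPM in hematogenous ones. Between the routes both were lower in lymphatic libraries (−0.94, adjusted p = 0.00233, and −0.83, adjusted p = 0.00284). The checkpoint kinase gene Chek1 rose in both lymphatic (0.48 ± 0.107, adjusted p = 0.00489) and hematogenous libraries (0.38 ± 0.108, adjusted p = 0.0169), and Chek2 fell in hematogenous libraries (−0.84 ± 0.116, adjusted p = 9.05e-05). The deubiquitinase gene Usp7, which acts on MDM2 and p53, rose in hematogenous libraries (0.59 ± 0.155, adjusted p = 0.0104), where the acetyltransferase gene Kat5 fell (−0.49 ± 0.119, adjusted p = 0.00670). Mdm4, the partner of MDM2, was at 454 ± 36.7, 469 ± 157 and 386 ± 20.1 CPM and passed in no comparison (adjusted p = 0.888, 0.449 and 0.337).

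Of the genes next to Cdkn2a, Mtap changed and Cdkn2b did not pass the test. Mtap, which lies beside Cdkn2a and encodes methylthioadenosine phosphorylase, rose from 91.2 ± 4.19 CPM in culture to 133 ± 16.5 in lymphatic libraries (0.55 ± 0.11, edgeR adjusted p = 0.00234) and was at 105 ± 9.46 CPM in hematogenous ones (0.20, adjusted p = 0.204). Cdkn2b, which encodes p15INK4b, stayed at a trace level of 0.796 ± 0.287, 0.807 ± 0.232 and 0.596 ± 0.295 CPM (adjusted p = 0.922 and 0.587 against culture). Bmi1, a polycomb gene known to repress the locus, fell from 258 ± 15.6 CPM to 169 ± 26.9 in lymphatic (−0.61 ± 0.115, adjusted p = 0.00141) and 131 ± 4.77 in hematogenous libraries (−0.98 ± 0.116, adjusted p = 2.03e-05). Ezh2, the polycomb methyltransferase, rose in lymphatic (0.31 ± 0.0984, adjusted p = 0.030) and in hematogenous libraries (0.53 ± 0.0986, adjusted p = 0.00105), and E2f1, an activator of ARF, fell in hematogenous libraries (−0.63 ± 0.187, adjusted p = 0.0208). Npm1, the nucleolar partner of ARF, rose in lymphatic libraries (0.70 ± 0.156, adjusted p = 0.00452). Myc was at 599 ± 54.2, 577 ± 97.5 and 638 ± 58.5 CPM and passed in no comparison (adjusted p = 0.798, 0.668 and 0.447). Of the 12 testable genes of 15 in this list, 3 rose and 2 fell in lymphatic libraries and 1 rose and 2 fell in hematogenous ones. That is 41.7% and 25% called, beside 26.4% and 27.8% of all genes.

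Of 57 other p53 targets, 44 could be tested. In lymphatic libraries 3 rose and 8 fell, with 18.2% lower beside 13.0% of all genes and a median of −0.15. In hematogenous libraries 3 rose and 14 fell, with 31.8% lower beside 13.9% of all genes and a median of −0.25. Between the routes, 7 were higher and 3 lower in lymphatic libraries, with a median of 0.11. That is 15.9% higher and 6.82% lower, beside 11.4% and 10.9% of all genes, and 22.7% in either direction beside 22.3%. Some of these genes were already known to fall when the lists were drawn up, so the counts describe the list and are not independent support.

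Among the 10 testable cell cycle targets, 1 fell in lymphatic and 3 fell in hematogenous libraries, and the other 9 and 7 did not pass edgeR's test. The called share was 10% and 30%, beside 26.4% and 27.8% of all genes. Btg2, an antiproliferative gene, fell from 209 ± 13.3 CPM to 99.6 ± 10.6 (−1.07 ± 0.157, adjusted p = 0.000204) and 78.4 ± 19.9 CPM (−1.41 ± 0.159, adjusted p = 1.35e-05). The phosphatase gene Ptprv (−1.0 ± 0.268, adjusted p = 0.0117) and the spindle gene Psrc1 (−0.55 ± 0.181, adjusted p = 0.0340) fell in hematogenous libraries. Of the 4 other CDK inhibitor genes tested, Cdkn1b, which encodes p27, fell in both routes, from 97.5 ± 3.47 to 62.9 ± 3.26 CPM (−0.63 ± 0.10, adjusted p = 0.000385) and 68.4 ± 7.15 CPM (−0.51 ± 0.101, adjusted p = 0.00149).

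Among 12 testable apoptosis targets, 1 rose and 2 fell in lymphatic libraries, and 4 fell in hematogenous libraries, where the other 8 did not pass. The called share was 25% and 33.3%, beside 26.4% and 27.8% of all genes. Pmaip1, which encodes the BH3-only protein NOXA, was at 9.03 ± 1.55 CPM in culture and fell to 5.16 ± 0.650 (−0.80 ± 0.179, edgeR adjusted p = 0.00459) and 3.24 ± 0.344 CPM (−1.46 ± 0.190, adjusted p = 5.04e-05). Bax, the effector of the mitochondrial pathway, was at 97.3 ± 13.8 CPM in culture and fell to 45.1 ± 9.62 CPM in hematogenous libraries (−1.11 ± 0.362, adjusted p = 0.0345). In lymphatic libraries Bax ranged from 30.8 to 158 CPM and did not pass (−0.23 ± 0.355, adjusted p = 0.676). Bbc3, which encodes PUMA, was at 5.51 ± 0.891, 5.11 ± 3.58 and 4.10 ± 0.907 CPM and passed in no comparison (adjusted p = 0.852, 0.504 and 0.622). Steap3 (−0.52 ± 0.167, adjusted p = 0.0326) and Ei24 (−0.34 ± 0.0964, adjusted p = 0.0175) fell in hematogenous libraries. Triap1, a p53 target that counters apoptosis, rose in lymphatic libraries (0.51 ± 0.148, adjusted p = 0.0219).

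Of the 22 testable repair and metabolism targets, 2 rose and 5 fell in lymphatic libraries and 3 rose and 7 fell in hematogenous libraries, and the rest did not pass. The called share was 31.8% and 45.5%, beside 26.4% and 27.8% of all genes. Ephx1, an epoxide hydrolase, fell from 40.5 ± 3.88 CPM to 5.09 ± 1.42 (−3.00 ± 0.254, edgeR adjusted p = 1.64e-06) and 15.1 ± 4.81 CPM (−1.42 ± 0.240, adjusted p = 0.000474). It was lower in lymphatic than in hematogenous libraries (−1.58 ± 0.250, adjusted p = 0.000714), the same order as for Trp53inp1. Ddit4, which encodes the mTORC1 inhibitor REDD1, fell from 94.9 ± 8.10 to 28.7 ± 9.72 and 33.7 ± 13.9 CPM (−1.73 ± 0.276, adjusted p = 0.000400, and −1.49 ± 0.276, adjusted p = 0.000967). Tap1, a peptide transporter that interferon also induces, rose from 23.1 ± 1.26 to 56.2 ± 7.57 and 61.2 ± 5.79 CPM (1.28 ± 0.123, adjusted p = 5.27e-06, and 1.40 ± 0.124, adjusted p = 1.35e-06). Between the routes the thiamine transporter gene Slc19a2 was higher (0.94 ± 0.156, adjusted p = 0.000922) and the phosphatase gene Ptp4a3 lower (−0.94 ± 0.222, adjusted p = 0.00825) in lymphatic libraries.

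**Figure D5:**
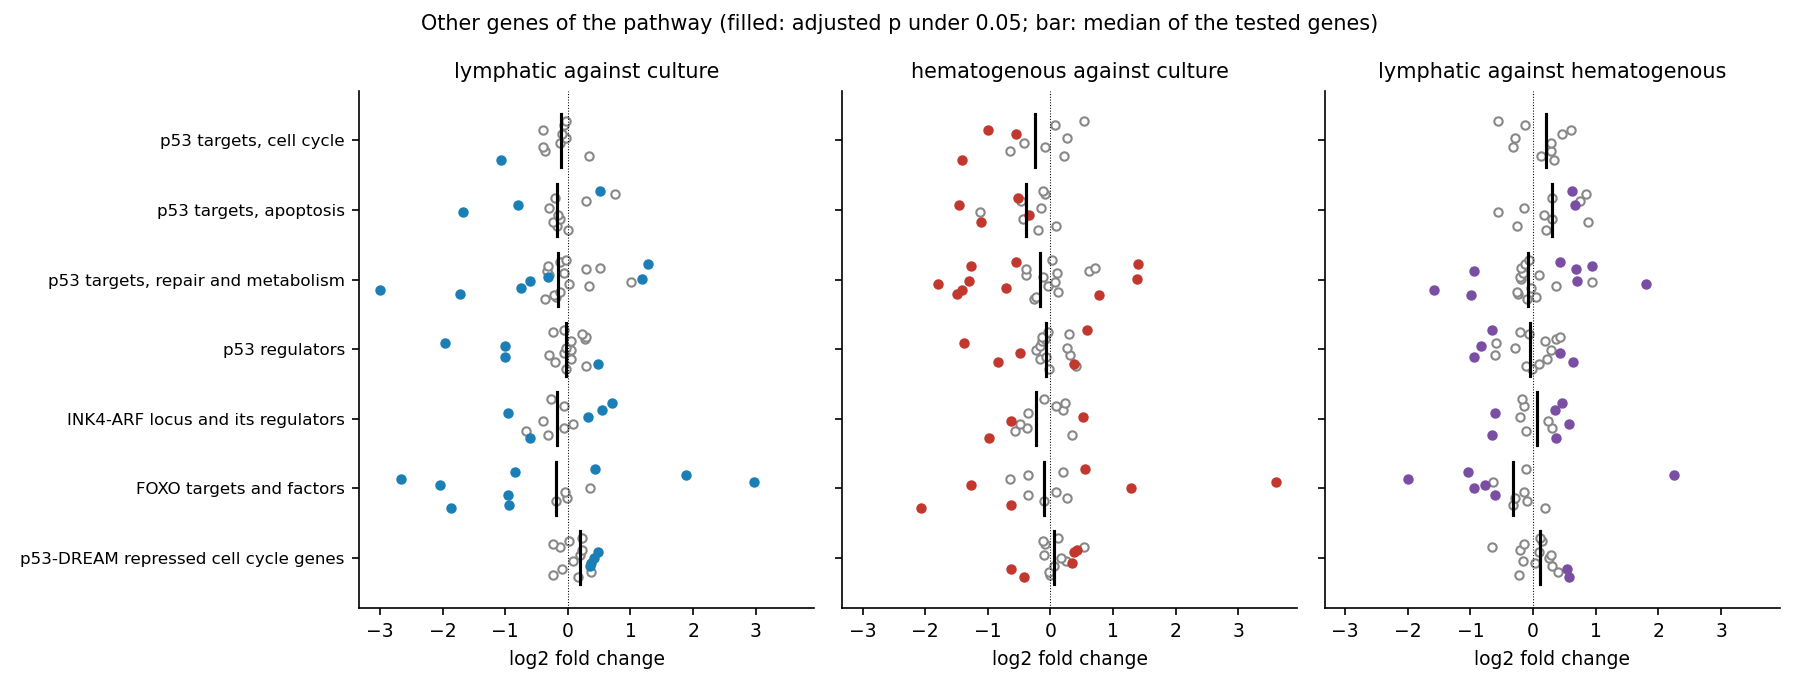
Log2 fold change of every testable gene of 7 lists in the 3 comparisons, with points for genes, filled where the adjusted p is under 0.05, and a bar for the median of the list. The median of the apoptosis targets is −0.17 in lymphatic and −0.38 in hematogenous against culture, and that of the genes repressed through DREAM is 0.19 and 0.05.

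FOXO factors share targets with p53, Sesn1 among them, and 13 FOXO genes were examined beside it. In lymphatic libraries 3 rose and 6 fell (median −0.19), in hematogenous libraries 3 rose and 3 fell (median −0.10), and between the routes 1 was higher and 5 were lower in lymphatic libraries (median −0.32). The called shares were 69.2%, 46.2% and 46.2%, beside 26.4%, 27.8% and 22.3% of all genes. This list too was drawn up with earlier results of these data known, so the shares are not independent support. Foxo3 fell from 53.3 ± 1.69 to 27.4 ± 3.61 CPM in lymphatic libraries (−0.96 ± 0.130, edgeR adjusted p = 0.000102) and was at 41.6 ± 5.64 CPM in hematogenous ones (−0.35, adjusted p = 0.0571). Foxo1 was at 71.9 ± 7.73, 71.2 ± 5.99 and 86.6 ± 5.61 CPM and passed in no comparison (adjusted p = 0.948, 0.0840 and 0.0772). Sesn3, a paralogue of Sesn1, was lower in lymphatic than in hematogenous libraries (−1.04 ± 0.198, adjusted p = 0.00239), and so was Pik3ip1, an inhibitor of PI3 kinase (−2.0 ± 0.336, adjusted p = 0.00104). Pik3ip1 fell from culture in lymphatic libraries (−2.66 ± 0.339, adjusted p = 6.55e-05). Irs2 fell in lymphatic (−2.03 ± 0.177, adjusted p = 1.99e-06) and in hematogenous libraries (−1.27 ± 0.174, adjusted p = 7.78e-05), and so did Bcl6 (−1.87 ± 0.233, adjusted p = 5.26e-05, and −2.06 ± 0.241, adjusted p = 1.84e-05). Klf2, a lymphocyte trafficking factor, rose in both routes (2.97 ± 0.372, adjusted p = 5.51e-05, and 3.61 ± 0.378, adjusted p = 6.90e-06). Il7r rose in hematogenous libraries (1.29 ± 0.279, adjusted p = 0.00308), and Rag1 was higher in lymphatic than in hematogenous libraries (2.25 ± 0.387, adjusted p = 0.00119).

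Cell cycle genes that p53 represses indirectly, through p21 and the DREAM complex, were taken as a last list of 15, all testable. In lymphatic libraries 4 rose and the other 11 did not pass edgeR's test (median 0.19), and in hematogenous libraries 3 rose and 2 fell (median 0.05). The called share was 26.7% and 33.3%, beside 26.4% and 27.8% of all genes. Cdc25c (0.41 ± 0.122, adjusted p = 0.0235) and Ccnb2 (0.37 ± 0.111, adjusted p = 0.0233), which drive entry into mitosis, rose in lymphatic libraries. In hematogenous libraries Ccnb2 (0.35 ± 0.111, adjusted p = 0.0298) and the kinesin gene Kif23 (0.43 ± 0.146, adjusted p = 0.0414) rose and the spindle checkpoint gene Bub1 fell (−0.63 ± 0.160, adjusted p = 0.00883). The mitotic kinase gene Aurka was higher in lymphatic than in hematogenous libraries (0.57 ± 0.14, adjusted p = 0.00974).

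For the 3 members that varied most over the 12 libraries, the genes with the most similar pattern were found by the mean absolute difference of centred log2 CPM, among tested genes with a mean of at least 10 CPM. Zfp365, with a range of 4.6 on the log2 scale, was closest to Pipox (mean difference 0.407), ENSMUSG00000120831 (0.429) and Cd244a (0.508), where the median over 8680 genes was 1.32. Pipox rose from 2.53 ± 0.428 CPM in culture to 4.91 ± 0.681 in lymphatic and 29.4 ± 13.9 in hematogenous libraries. Cdkn2a, with a range of 3.06, was closest to Aldh16a1 (0.322), Rpl8 (0.330) and Tcf3 (0.341), with a median of 0.668. Rpl8 spanned 612 to 3909 CPM within the lymphatic group alone, so that the likeness rests largely on differences among lymphatic libraries. Trp53inp1, with a range of 2.61, was closest to Mturn (0.0829), Mindy2 (0.105) and Natd1 (0.123), with a median of 0.716. Mturn stood at 64.7 ± 5.25, 18.5 ± 5.34 and 37.9 ± 6.06 CPM in the culture, lymphatic and hematogenous groups. All these genes were picked for likeness over the same libraries. Their distances below the median, and the order of groups that Mturn shares with Trp53inp1, follow from that choice.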

How the data were processed

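Libraries were stranded and single-end, from poly(A) RNA of cells whose sort gate is not given, per the labels' protocols. The submitters' processing notes name FastQC 0.11.9, Trimmomatic 0.39, HISAT2 2.1.0, HTSeq 2.0.2 and the build GRCm39. The annotation version and the strand setting are not given in the sources used here. The deposited files hold raw counts per Ensembl gene and library. Reads without a gene (30.3% to 36.5% by library) entered neither library sizes nor tests. A symbol was found for 91.8% of identifiers by unversioned ID. Exon lengths come from an annotation of build GRCm38, and promoter windows from RefSeq GRCm38.p6, so no other positions are given.

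The test was that of edgeR 4.0.16 under R 4.3.3 (TMM factors, filterByExpr, quasi-likelihood F test, 12 libraries, group as the only term, 9 residual degrees of freedom), two-sided, with Benjamini-Hochberg adjustment over 13535 genes at 0.05. The same steps were tested on simulated data. SE follows from fold change and F. CPM use TMM factors. Intervals are 95%, and without molecular identifiers counting precision covers counting error only. Library totals were 5655422 to 12738568 in culture, 12399951 to 25302016 in the lymphatic and 5286775 to 12444690 in the hematogenous group. No pair of libraries agreed within sampling noise.

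Alternatives were other size factors, DESeq2 1.42.0, limma-voom (limma 3.58.1), no filter, a replicate block, only the groups compared, each library left out, and lymphatic 4 and culture 4 left out together. The members and lists were chosen with earlier results of these data known. From each list, per comparison, up to 3 called genes with a mean of at least 10 CPM in the higher group and no overlap were named by size of change. Bax, Bbc3, Pmaip1, Mdm4, Cdkn2b, Mtap, Bmi1, Myc, Foxo1 and Foxo3 were always named. Txnip, and the library values of Il7r and Pik3ip1, were chosen after their values were seen.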

Additional observations from a re-analysis of the deposited data

Results flagged for a closer look

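Single libraries stood far from the other 3 of their group in 3 of 30 groups checked (10 genes in 3 groups), where chance gives about 1 in 20. Cdkn1a was at 5.07 CPM in culture 4, against 6.99 to 7.30 CPM in the other culture libraries. It was at 4.22 CPM in lymphatic 4, against 3.23 to 3.38 CPM in the other lymphatic libraries. Trp53inp1 was at 78.3 CPM in hematogenous 2, against 119 to 122 CPM in the other hematogenous libraries.

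The change from culture differed between the routes by edgeR's test for 3 of the 9 genes other than Zfp365, where 22.3% of all genes were called. It differed for Zfp365 too, which passed the filter through the group in which it is high. The difference, lymphatic minus hematogenous on the log2 scale, was −0.81 for Rrm2b, −0.93 for Trp53inp1, −2.69 for Zfp365 and −1.49 for Sesn1. Both changes are taken from the same culture libraries, so the difference is that between the lymph node groups.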

How the results depend on the processing

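Under 19 alternatives to the fit, 538 of 569 values of the 10 genes kept their direction and their side of the threshold, 11 lost the call, 10 gained one and 10 changed sign. All sign changes were between the routes and none was of a called value. Cdkn2a was −0.39 with limma-voom and −0.32 without lymphatic 4 and culture 4, and it ran from −0.32 (without lymphatic 4) to 0.73 as single libraries were left out. Zmat3 ran from −0.13 to 0.24 in this way, below 0 without lymphatic 1, lymphatic 3, hematogenous 1 or hematogenous 2. Ccng1 ran from −0.076 to 0.18, below 0 without lymphatic 2, hematogenous 1 or hematogenous 2. The cause was not tested.

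Leaving out 1 library gave 1 to 2 of the 9 genes other than Zfp365 higher and 3 to 6 lower in lymphatic against culture. The main fit gave 1 and 5, where it called 13.4% of all genes higher and 13.0% lower. The 3 lower came without culture 1 or culture 3, and the 2 higher without lymphatic 2. Over all genes, leaving out 1 library gave 1545 to 2995 higher and 1580 to 2935 lower in hematogenous against culture (main counts 1880 and 1880). Between the routes it gave 930 to 2080 higher and 1072 to 2253 lower in lymphatic libraries (main counts 1542 and 1470). The highest counts came without lymphatic 4, and the 930 without hematogenous 1. With only the compared groups in the fit, the counts were 3150 and 3194, and 910 and 824. Zfp365 in lymphatic against culture had no value in that fit, where it failed the filter. No scaling moved the median of all genes by over 0.1 on the log2 scale.

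Same-numbered libraries did not deviate together (12 correlations from −0.181 to 0.0919, 0 of them over 0.1), and the own number gave the highest correlation in 2 of 12. The labels do not say whether the numbers pair libraries, and 4 libraries per group are too few for these correlations to decide it. With the replicate block, 4 of the 9 genes other than Zfp365, rather than 5, were lower in lymphatic against culture, Trp53 being lost (edgeR adjusted p = 0.0528). The main fit called 13.0% of all genes lower there. With this block, 7 other p53 targets higher in lymphatic than in hematogenous libraries became 4, where the main fit called 11.4% of all genes higher. Of the other targets, 3 higher in hematogenous libraries than in culture became 5 with DESeq2 and 6 without a filter. The main fit called 13.9% of all genes higher there. Shares of all genes called with the block, with DESeq2 or without a filter are not given here. Depth limits Cdkn2a and Zfp365, whose libraries hold at most 57 counts.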
